A study of Rattus norvegicus with 18 samples.

Results

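The mitochondrial ribosomal protein genes were taken as all genes whose only symbol on the array begins with Mrpl or Mrps. One probe set stood for each gene, the one with the highest mean over the 18 arrays. This gave 76 of the 14217 named genes, 49 for the large subunit (Mrpl) and 27 for the small subunit (Mrps), and the choice used no difference between groups. Messenger RNA had been measured with Affymetrix arrays in both hindlimbs of 9 male rats, in muscle labelled as soleus, and the labels give neither strain nor age. The 4 groups were the right limb of 5 SNX rats, the left limb of the same SNX rats, the right limb of 4 sham rats and the left limb of the same sham rats. SNX rats had undergone 5/6 nephrectomy, a removal of most renal mass that is used as a model of chronic kidney disease, and sham rats a sham operation. All 9 rats, sham rats included, had the femoral artery of the right limb ligated and resected after 8 weeks and were killed 24 hours later, so every left limb came from an animal with a ligated artery on the other side. The source labels call both limbs of every SNX rat ischemic and both limbs of every sham rat nonischemic, which contradicts the design text, and the groups are therefore named by operation and side.

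The mitochondrial ribosome is a separate ribosome inside mitochondria that translates the few messenger RNAs of mitochondrial DNA, all of which code for subunits of the respiratory chain and the ATP synthase. Its RNAs come from mitochondrial DNA, while all of its proteins are encoded in the nucleus, made in the cytosol and imported. The small subunit holds the messenger RNA and decodes it, and the large subunit joins the amino acids and feeds the new chain into the inner membrane. Skeletal muscle depends on this machinery for oxidative capacity, most of all in slow fibres.

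All values below are log2 expression values from the authors' deposited table, and a difference of 1 is a doubling. The 76 genes had means over all arrays of 7.02 to 13.03, with a median of 10.40, and all 76 lay above the median probe set at 3.30. Marker genes of both fibre types were found on every array. The fast fibre marker Myh4 had group means of 15.17 to 15.48, against 14.70 to 15.17 for the slow fibre marker Myh7. The identity of the muscle beyond its label was not tested. The mean of 10 fast fibre markers lay between 14.42 and 14.91, and that of 9 slow fibre markers, which should be high in soleus, between 10.40 (right limb of SNX rat 20) and 14.47 (left limb of SNX rat 12). The right minus left difference of the slow fibre mean was -1.02, 0.86, -2.11, 0.10 and 0.55 in SNX rats 12, 18, 20, 37 and 49, against 1.52, -0.13, -0.85 and 1.31 in sham rats 11, 13, 15 and 17. The limbs of a rat thus differed in slow fibre markers in either direction. The right minus left difference of the fast fibre mean averaged -0.092 ± 0.20 (SD) over the 9 rats, with 7 of 9 lower on the right. The part of either fibre type in the right minus left values of the 76 genes was not tested. The right arrays of SNX rat 49 and sham rat 17 were least like the rest, at an average correlation with them of 0.980 and 0.978, and had the highest macrophage marker means, 8.15 and 8.83, against 5.27 to 7.26 on the other 16 arrays. The same arrays had the lowest means of the 76 genes, 10.13 and 10.12, against 10.28 to 10.49 on the other 16. In whole muscle, fewer cells of a type and less RNA per cell cannot be told apart.

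The question of the right against left comparison is what the ligation did within 24 hours. Every right limb was ligated and no left limb was. The ligation therefore cannot be told apart from limb side or from the surgery that came with it. Averaged over SNX and sham rats, the mitochondrial ribosomal protein genes were mostly lower in the right limb, by small amounts. Of 76 genes, 58 had a difference below 0 and 18 above it, and the median difference was -0.12, or -0.13 for the large and -0.11 for the small subunit. The median over all 14217 genes was -0.01, and over the 5649 genes at least as bright as the dimmest of the 76 it was -0.05. Single genes ranged from -0.41 (Mrpl14) to 0.36 (Mrpl45), each by its chosen probe set. Mrpl40 had 0.03 by its chosen probe set and -0.50 by a second one, which was dimmer but above every array's median.

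**Figure D1:**
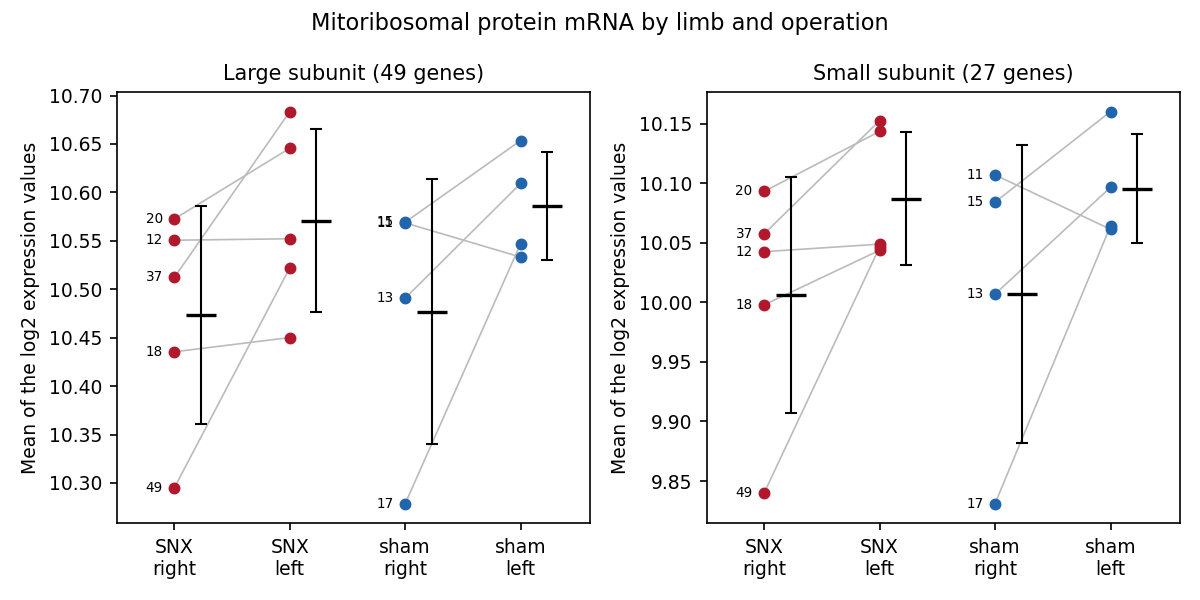
Mean log2 expression value of the 49 large subunit genes (left panel) and the 27 small subunit genes (right panel) on each array; points are arrays, grey lines join the limbs of a rat, and bars show the group mean with its SD over 5 SNX or 4 sham rats. The lowest point of each right limb group is SNX rat 49 or sham rat 17, and sham rat 11 is the only rat with a higher right value in both panels.

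The large subunit genes averaged 10.47 ± 0.11 in the right and 10.57 ± 0.094 in the left limbs of SNX rats (SD of the array means, n = 5 rats), and 10.48 ± 0.14 in the right and 10.59 ± 0.056 in the left limbs of sham rats (n = 4). The small subunit genes averaged 10.01 ± 0.099 in the right and 10.09 ± 0.056 in the left limbs of SNX rats, and 10.01 ± 0.13 in the right and 10.10 ± 0.046 in the left limbs of sham rats. The ranges of right and left overlapped for both subunits in both kinds of rat. Within rats, the mean of the 76 genes was lower in the right limb in 5 of 5 SNX rats, by 0.003 in rat 12, 0.026 in rat 18, 0.065 in rat 20, 0.14 in rat 37 and 0.22 in rat 49. In sham rats the right minus left difference was 0.039 in rat 11, -0.11 in rat 13, -0.081 in rat 15 and -0.26 in rat 17, so 3 of 4 were lower. Over the 9 rats the difference averaged -0.096 ± 0.098 (SD), and without rats 17 and 49 it averaged -0.056 ± 0.063 with 6 of 7 rats lower. Macrophage markers moved the other way on average, but not in every rat. Their list mean was higher on the right by an average of 1.05 ± 0.88 (SD) and lower in 1 of 9 rats. That was SNX rat 20 (-0.27), where the 76 genes were lower as well, while in sham rat 11 both were higher. In SNX rats 12 and 18 the macrophage mean was higher by 1.08 and 1.23, beside 0.003 and 0.026 lower for the 76 genes. The largest macrophage differences, 2.66 in SNX rat 49 and 2.01 in sham rat 17, stood beside the largest falls of the 76 genes, 0.22 and 0.26. In SNX rat 37 and sham rats 13 and 15 the macrophage mean was higher by 1.16, 0.48 and 0.72, beside 0.14, 0.11 and 0.081 lower for the 76 genes. All 13 measured macrophage markers had a right minus left difference above 0, with a median of 0.82, and 1 (Cd14) passed the test without and 7 with the rat as a block. Of all probe sets, 2.55% passed without and 9.05% with the block (4.56% higher and 4.48% lower). These shares are also the background for the other markers in this paragraph. The macrophage list mean ranged over arrays from 5.65 to 8.15 in the right and 5.27 to 5.92 in the left limbs of SNX rats. In sham rats it ranged from 6.40 to 8.83 in the right and 5.98 to 6.83 in the left limbs. Markers of other cells moved as well. Of 10 fibroblast markers 9 were above 0, with a median of 0.49, and 1 (Mfap5) rose with the block, and their list mean was higher on the right in 8 of 9 rats by an average of 0.41 ± 0.38 (SD). It ranged over arrays from 9.66 to 10.17 in the right and 9.03 to 9.84 in the left limbs of SNX rats, and from 9.77 to 10.74 in the right and 9.77 to 10.62 in the left limbs of sham rats. Of 9 endothelial markers 7 were above 0, with a median of 0.24. Kdr and Pecam1 rose in both fits, and Tek fell with the block. The endothelial list mean ranged from 7.50 to 7.76 in the right and 7.19 to 7.80 in the left limbs of SNX rats, and from 7.70 to 8.33 in the right and 7.53 to 7.99 in the left limbs of sham rats. Of 5 Schwann cell markers 4 were above 0, with a median of 0.76, and none passed. The Schwann cell list mean ranged from 5.66 to 7.76 in the right and 5.31 to 5.78 in the left limbs of SNX rats, and from 6.49 to 8.14 in the right and 6.25 to 8.20 in the left limbs of sham rats, while Sox10, a defining marker, lay between 2.07 and 2.16 on every array. The part of these markers in the result was not tested.

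In limma's fit of 1 mean per group over all 31042 probe sets, with p-values adjusted by the Benjamini-Hochberg method over all of them, 3 of the 76 genes fell in the right limb and none rose. Of all probe sets, 2.55% were called in this comparison, 0.999% as lower. When the rat entered as a random block, so that both limbs of an animal were paired, 18 of the 76 fell and 1 rose. All probe sets were then called at 9.05%, 4.48% as lower and 4.56% as higher, and of the 5649 genes at least as bright as the dimmest of the 76, 10.3% fell and 9.9% rose. The 18 were 12 large and 6 small subunit genes, and the 1 that rose belongs to the small subunit. At an unadjusted p under 0.05 and without the block, 31 of the 76 were lower and 4 higher, against 10.8% and 8.12% of all probe sets.

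Mrpl21, Mrps12 and Mrpl52 were the genes that fell in both fits. Mrpl21 is the counterpart of a bacterial large subunit protein. Its log2 values were 9.34, 9.18, 9.37, 9.19 and 8.99 in the right limbs of SNX rats 12, 18, 20, 37 and 49, against 9.24, 9.36, 9.61, 9.50 and 9.46 in their left limbs. In sham rats 11, 13, 15 and 17 they were 9.16, 9.03, 9.29 and 9.18 in the right limbs, against 9.50, 9.45, 9.50 and 9.61 in the left limbs. Every right value of the sham rats lay below every left one, while in SNX rats the groups overlapped and rat 12 went the other way. The right minus left difference over both kinds of rat was -0.28 ± 0.058 (SE; limma adjusted p = 0.0219, and 0.0052 with the block), and 8 of 9 rats were lower. Without single rats the call held in 4 of 9 fits without the block and in 9 of 9 with it.

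Mrps12 codes for a protein at the decoding centre of the small subunit. Its values were 9.78, 9.74, 9.99, 9.86 and 9.74 in the right limbs of SNX rats 12, 18, 20, 37 and 49, against 9.99, 9.81, 10.16, 10.08 and 9.83 in their left limbs. Sham rats 11, 13, 15 and 17 had 9.62, 9.55, 9.51 and 9.59 in the right limbs, against 9.87, 9.80, 9.89 and 9.82 in the left limbs. All 9 rats were lower on the right, and right and left did not overlap in sham rats. The difference was -0.22 ± 0.048 (SE; adjusted p = 0.0317, and 0.00434 with the block).

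Mrpl52, a large subunit protein with no bacterial counterpart, moved less but with little spread. It had 9.32, 9.26, 9.33, 9.15 and 9.21 in the right limbs of SNX rats 12, 18, 20, 37 and 49, against 9.41, 9.36, 9.32, 9.41 and 9.44 in their left limbs. In sham rats 11, 13, 15 and 17 it had 9.30, 9.24, 9.34 and 9.14 in the right limbs, against 9.38, 9.32, 9.39 and 9.54 in the left limbs. SNX rat 20 was higher on the right by 0.011 and the other 8 rats were lower, and the groups overlapped in both kinds of rat. The difference was -0.14 ± 0.035 (SE; adjusted p = 0.0498, and 0.0204 with the block), and another probe set of the gene gave -0.07. Its adjusted p ran from 0.0153 to 0.145 over 27 alternatives. The calls without the block were lost in single refits. When sham rat 11, 13 or 17 or SNX rat 37 was omitted none of the 76 genes passed, and only 1 did when sham rat 15 or SNX rat 18 was. Without the right arrays of sham rat 17 and SNX rat 49, Mrpl21 alone passed. All probe sets were called at 0.493% to 0.931% in the fits with none of the 76, at 1.51% and 1.2% without sham rat 15 and SNX rat 18, and at 2.11% without the pair of arrays.

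**Figure D2:**
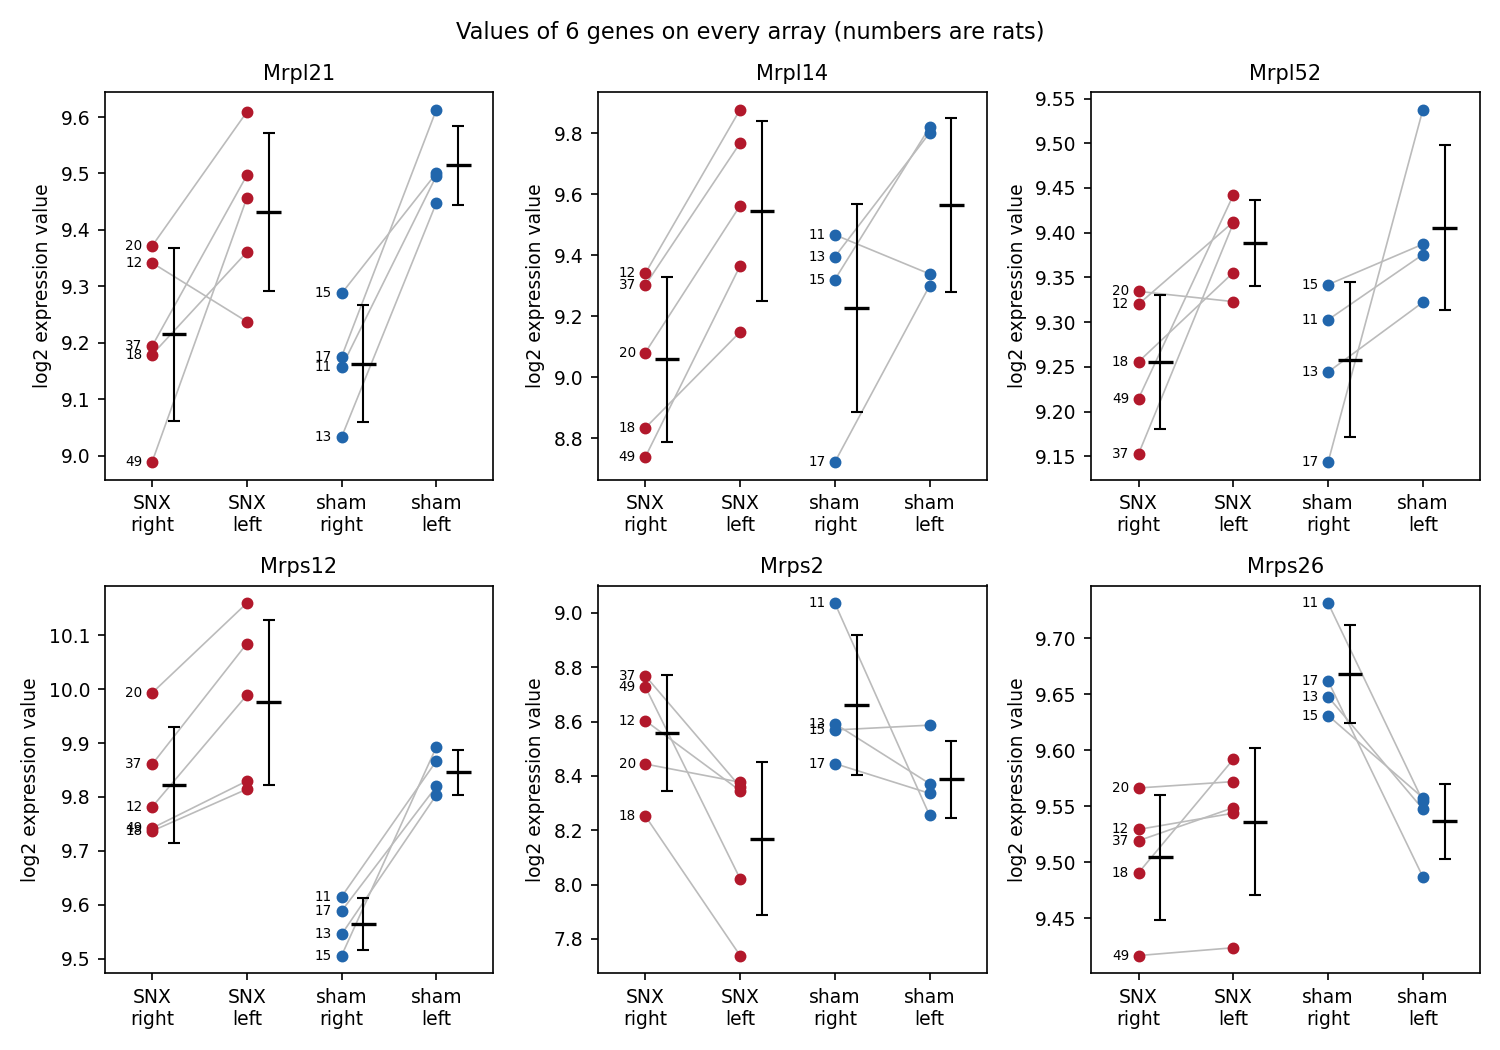
Log2 expression values of Mrpl21, Mrpl14, Mrpl52, Mrps12, Mrps2 and Mrps26 on each of the 18 arrays, by operation and limb; points are arrays with the rat's number at its right limb value, grey lines join the limbs of a rat, and bars show the group mean with its SD. Mrps12 fell on the right in all 9 rats, Mrps2 was higher on the right in 8 of 9, and Mrps26 was higher on the right in sham rats alone.

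Among the genes that passed with the block only, Mrpl14 had the lowest difference. Mrpl14 is a conserved large subunit protein that lies where the subunits meet and is contacted by the assembly factor Malsu1. Its values were 9.34, 8.83, 9.08, 9.30 and 8.74 in the right limbs of SNX rats 12, 18, 20, 37 and 49, against 9.88, 9.15, 9.56, 9.77 and 9.37 in their left limbs. Sham rats 11, 13, 15 and 17 had 9.47, 9.40, 9.32 and 8.72 in the right limbs, against 9.34, 9.80, 9.82 and 9.30 in the left limbs. The rats differed widely in level, and 8 of 9, all but sham rat 11, were lower on the right. The difference was -0.41 ± 0.11 (SE with the block), a fold of 0.752, with an adjusted p of 0.0273 with the block and 0.113 without it. Without single rats the call with the block held in 4 of 9 fits.

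Mrps2, a small subunit protein with a bacterial counterpart, was the 1 gene of the 76 that rose. It had 8.60, 8.25, 8.44, 8.77 and 8.73 in the right limbs of SNX rats 12, 18, 20, 37 and 49, against 8.35, 7.74, 8.38, 8.36 and 8.02 in their left limbs. In sham rats 11, 13, 15 and 17 it had 9.04, 8.59, 8.57 and 8.45 in the right limbs, against 8.25, 8.37, 8.59 and 8.34 in the left limbs. It was higher on the right in 8 of 9 rats, with overlapping groups. The difference was 0.33 ± 0.091 (SE with the block; adjusted p = 0.0346 with the block and 0.105 without it), a fold of 1.26. Without single rats the call with the block held in 3 of 9 fits, with an adjusted p of up to 0.119. Its other probe sets, both dimmer than every array's median, gave 0.02 and 0.004, and the mean of all its probe sets gave 0.12. Mrpl45, which anchors the ribosome at the inner membrane, had a larger difference of 0.36 ± 0.13 but did not pass (adjusted p = 0.0968 with the block), with 7 of 9 rats higher.

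The promoter windows of RefSeq (assembly GRCr8) were searched for the motifs of factors known to act on nuclear genes for mitochondria. They run from 250 bases before to 50 bases after the start of the gene. The motifs were GCGCA and GCGC with 1 base N between them for nuclear respiratory factor 1 (NRF1), CCGGAAG for ETS factors such as GABP, and AANATGGCG for YY1, on both strands. A window was available for 62 of the 76 genes. The windows of 4 genes are shown, Mrpl14, Mrpl52 and Mrpl58 as genes that fell with the block and hold different motifs, and Mrps2 as the gene that rose, whose window holds none of the motifs. Capitals mark a motif on either strand, and no marked motifs overlap.
Mrpl14 (chr9:22811184-22811483, minus strand): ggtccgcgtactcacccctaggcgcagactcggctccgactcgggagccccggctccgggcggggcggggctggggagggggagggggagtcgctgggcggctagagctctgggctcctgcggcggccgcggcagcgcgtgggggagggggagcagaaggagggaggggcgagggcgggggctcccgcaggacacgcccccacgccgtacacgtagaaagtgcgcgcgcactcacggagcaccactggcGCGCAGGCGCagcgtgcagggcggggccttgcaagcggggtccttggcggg
Mrpl52 (chr15:31852686-31852985, plus strand): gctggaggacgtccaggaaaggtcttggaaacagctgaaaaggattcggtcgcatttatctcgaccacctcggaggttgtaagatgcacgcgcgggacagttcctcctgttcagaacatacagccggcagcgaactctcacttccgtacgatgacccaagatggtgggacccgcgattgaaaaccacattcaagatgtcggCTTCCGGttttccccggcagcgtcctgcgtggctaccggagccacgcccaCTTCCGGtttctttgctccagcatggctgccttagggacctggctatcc
Mrpl58 (chr10:101145092-101145391, plus strand): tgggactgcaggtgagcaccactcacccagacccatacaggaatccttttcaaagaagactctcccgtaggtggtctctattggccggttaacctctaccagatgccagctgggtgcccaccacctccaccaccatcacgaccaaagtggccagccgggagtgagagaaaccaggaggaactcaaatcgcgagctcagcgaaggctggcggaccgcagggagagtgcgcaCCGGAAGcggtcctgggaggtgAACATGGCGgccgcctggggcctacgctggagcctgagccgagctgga
Mrps2 (chr3:32200827-32201126, plus strand): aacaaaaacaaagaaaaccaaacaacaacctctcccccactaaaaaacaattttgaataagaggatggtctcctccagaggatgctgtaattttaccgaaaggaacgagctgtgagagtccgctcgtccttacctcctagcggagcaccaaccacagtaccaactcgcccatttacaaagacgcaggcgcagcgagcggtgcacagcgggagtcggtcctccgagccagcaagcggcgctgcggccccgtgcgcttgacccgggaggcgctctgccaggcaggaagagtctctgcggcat

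NRF1 motifs were found in 10 of the 62 windows (16.1%), against 4.71% of all 27457 promoter windows. ETS motifs were found in 20 (32.3%), against 9.22%, and YY1 motifs in 12 (19.4%), against 3.33%. At least 1 of the motifs was in 33 windows (53.2%), against 15.3% of all windows. Of the 18 genes that fell with the block 14 had a window, and 7 of these held a motif, against 26 of the other 48 (54.2%). Mrpl21 and Mrps12, which fell in both fits, had no window and are not in this count. The motifs are matches of letters and do not show binding.

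The other 14 genes that fell with the block did so by 0.17 to 0.32. Among the large subunit genes, Mrpl49 (-0.31 ± 0.077, SE with the block), Mrpl51 (-0.24 ± 0.057), Mrpl55 (-0.22 ± 0.063) and Mrpl37 (-0.18 ± 0.044) code for proteins specific to mitochondria. Mrpl28 (-0.21 ± 0.054), Mrpl30 (-0.21 ± 0.049), Mrpl18 (-0.18 ± 0.054) and Mrpl23 (-0.17 ± 0.044) have bacterial counterparts, and the Mrpl23 protein lies at the exit of the tunnel for the new chain. Mrpl58 (-0.19 ± 0.042), also known as Ict1, is a peptidyl-tRNA hydrolase that became part of the ribosome, and like Mrpl18 was lower in the right limb of all 9 rats. In the small subunit, Mrps11 fell by 0.32 (SE with the block 0.094), Mrps24 by 0.21 (0.055), Mrps22, which is specific to mitochondria, by 0.19 (0.049), and Mrps15 and Mrps21 by 0.18 each (0.050 and 0.053). Their adjusted p-values with the block lay between 0.0152 (Mrpl58) and 0.0487 (Mrps21), and each was lower in 7 to 9 of 9 rats. Without single rats their calls held in 2 (Mrpl18, Mrpl55 and Mrps11) to 9 (Mrpl58) of 9 fits. The other 3 probe sets of Mrpl51 gave -0.28, -0.13 and -0.37, and the second of Mrpl49 gave -0.29. Over the 18 genes with several probe sets, 19 of the 24 other probe sets had the sign of the one chosen, and 15 of the 17 that were brighter than every array's median did.

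**Figure D3:**
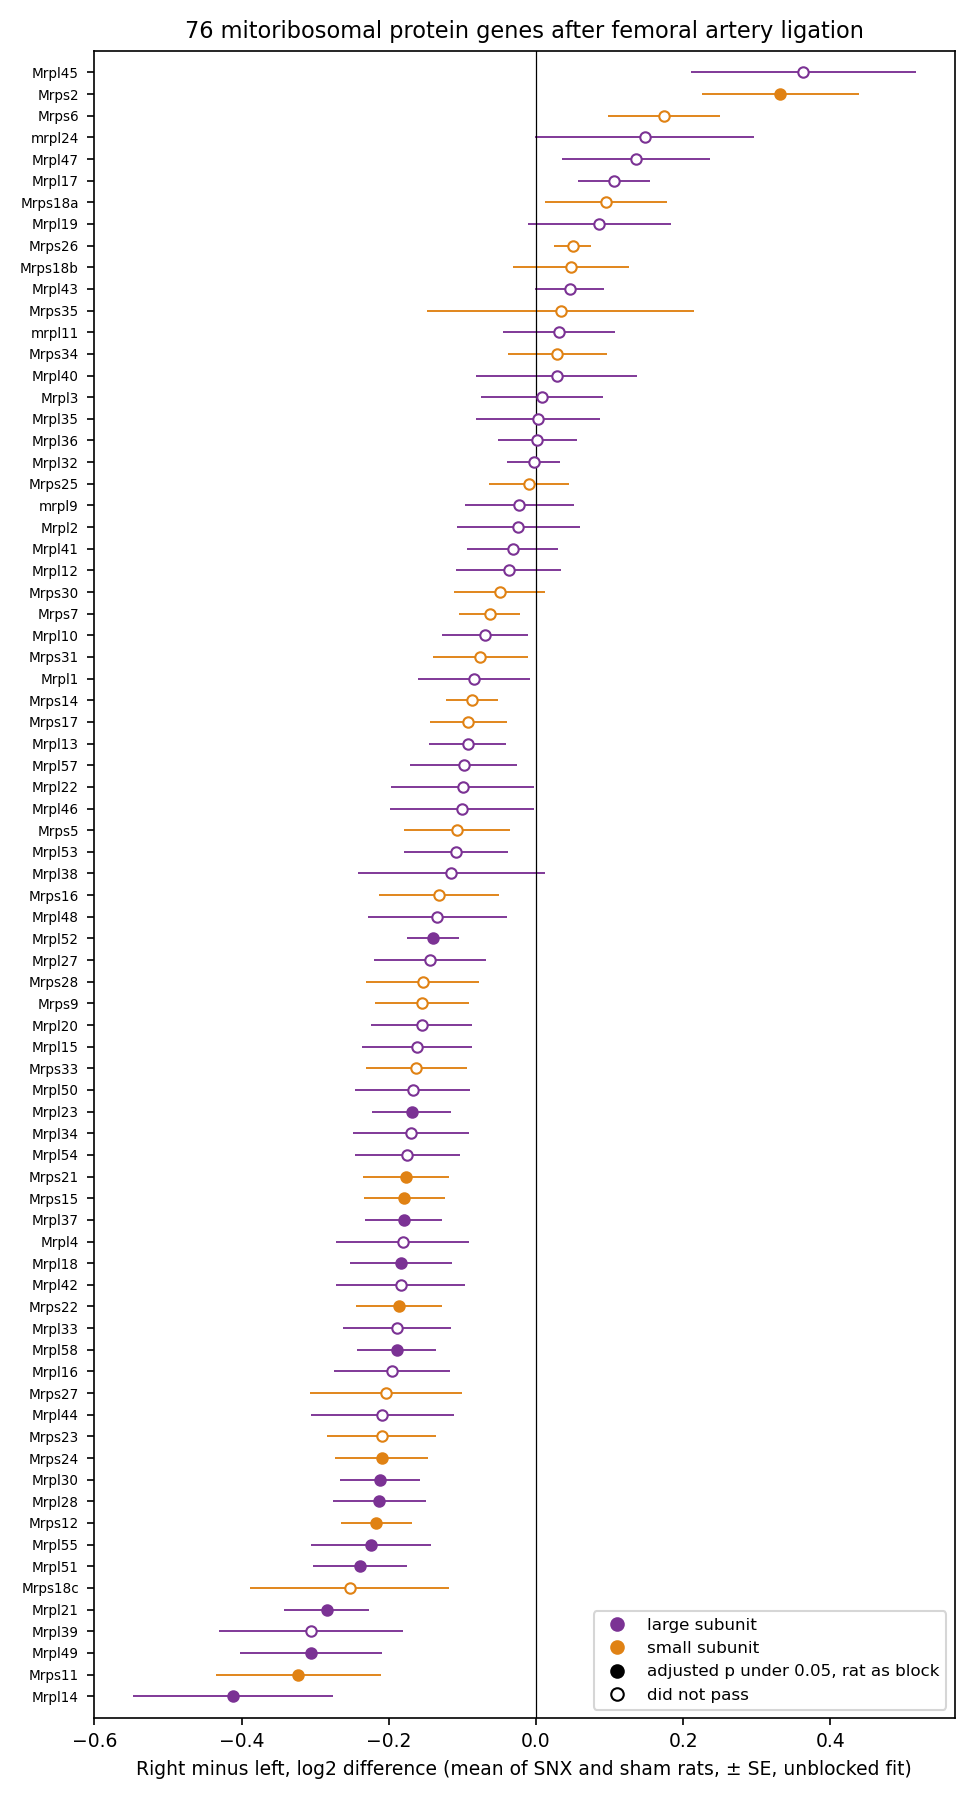
Right minus left log2 difference of each of the 76 genes, mean of SNX and sham rats, with its SE from the fit without the block; purple is the large and orange the small subunit, and filled points passed an adjusted p under 0.05 with the rat as a block. Of the 76 differences 58 lie below 0, from -0.41 (Mrpl14) upwards, and 18 above, up to 0.36 (Mrpl45).

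The fall was uneven between rats. The number of the 76 genes lower on the right was 37 in SNX rat 12, 47 in rat 18, 52 in rat 20, 67 in rat 37 and 66 in rat 49. In sham rats it was 40 in rat 11, 61 in rat 13, 56 in rat 15 and 66 in rat 17. Only 9 genes were lower on the right in every rat: Mrpl4, Mrpl18, Mrpl33, Mrpl34, Mrpl44, Mrpl58, Mrps9, Mrps12 and Mrps16. No gene was higher on the right in every rat. No share of all named genes is given beside these counts, so they have no background. Without the right arrays of sham rat 17 and SNX rat 49, which were chosen for removal as the arrays that stood apart, the median difference over SNX and sham rats was -0.074 for the large and -0.068 for the small subunit. With the block 7 genes then passed (Mrpl21, Mrpl28, Mrpl30, Mrpl51, Mrpl58 and Mrps12 as lower, all among the 19 called before, and Mrpl43 as higher), against 6.12% of all probe sets, and all 19 kept their sign. With the block and without single rats, the number of genes called was 3 when sham rat 17 was omitted, 5 for SNX rat 37, 7 for sham rat 11, and 9 for sham rat 13, SNX rat 18 or SNX rat 49. Calls over all probe sets also fell in these refits, to 3.75%, 4.06% and 3.88% for sham rat 17, SNX rat 37 and sham rat 11 and to between 4.84% and 5.84% for the other 3. The number was highest, at 23, without SNX rat 20, where 10.6% of all probe sets were called.

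**Figure D4:**
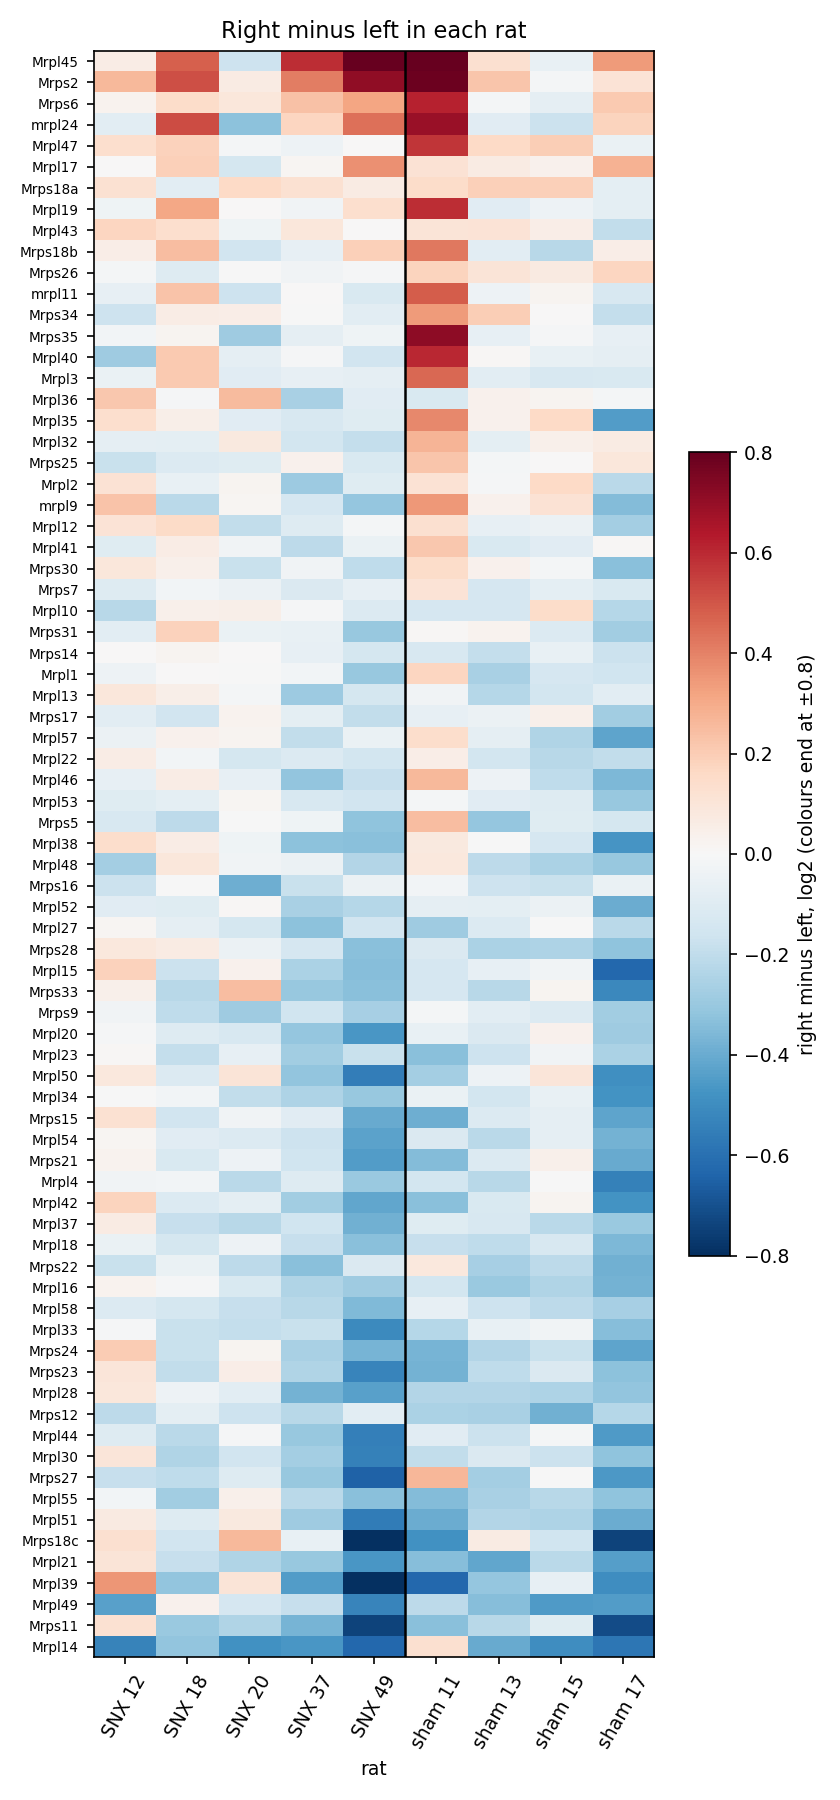
Right minus left log2 difference of each of the 76 genes in each of the 9 rats, SNX rats left of sham rats, with genes ordered by their mean; blue is lower and red higher in the right limb, and colours end at 0.8. The columns of SNX rat 49 and sham rat 17 are the bluest in the lower part, and sham rat 11 has red cells across much of the upper part.

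Taken separately, SNX and sham rats gave fewer calls. In SNX rats the median right minus left difference was -0.11 for the large and -0.10 for the small subunit, and 65 of 76 genes were below 0. Without SNX rat 49 the medians were -0.064 and -0.058. As a mean over genes, the difference in SNX rats was -0.092 for the 76 and 0.0069 for the genes at least as bright as the dimmest of them. None of the 76 passed in limma's fit, with or without the block, where 0.0451% and 0.319% of all probe sets did. At an unadjusted p under 0.05, 11 were lower and 1 (Mrps2) higher, against 3.84% and 4.08% of all probe sets, and the lowest adjusted p was 0.434 without and 0.151 with the block. In sham rats the medians were -0.15 and -0.11, and 54 of 76 genes were below 0. Without sham rat 17 they were -0.073 and -0.052. As a mean over genes, the difference in sham rats was -0.10 for the 76 and 0.0045 for the genes at least as bright. No share of all genes below 0 is given beside the counts of 65 and 54. None of the 76 passed in sham rats without the block, where 0.148% of all probe sets did. With it, 3 of 76 genes did, against 1.8% of all probe sets (0.802% lower and 0.999% higher): Mrpl21 (-0.35 ± 0.075, adjusted p = 0.0316), Mrps12 (-0.28 ± 0.055, adjusted p = 0.0225) and Mrps26, which was higher (0.13 ± 0.030, adjusted p = 0.0403). None of the 3 passed with the block when any 1 sham rat was left out, 1 gene passed without SNX rat 18 or 37, and 8 passed without SNX rat 49. In the same refits 0.232% to 1.01%, 0.78% and 0.973%, and 5.05% of all probe sets were called. Without the block, 18 were lower and 1 higher at an unadjusted p under 0.05 in sham rats, against 6.82% and 5.51% of all probe sets. Of the 76, 10 had right values that all lay below the left ones in sham rats (Mrpl21, Mrpl28, Mrpl30, Mrpl37, Mrpl49, Mrpl51, Mrps12, Mrps23, Mrps24 and Mrps28) and 1 (Mrps26) had them all above, against 5.3% and 4.92% of all named genes. None was without overlap in SNX rats or over all 9 rats, against 2.64% and 0.38% of all named genes.

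Whether the change differed between SNX and sham rats was tested as an interaction, the right minus left change of SNX rats minus that of sham rats. None of the 76 genes passed in either fit, and neither did any of the 31042 probe sets (0%). The median of this difference was 0.03 for the large and 0.01 for the small subunit, with 44 of 76 genes above 0. The share of all genes above 0 is not given beside this count. At an unadjusted p under 0.05, 2 genes were called, Mrpl32 and Mrps26, against 1.41% of all probe sets. Mrps26, a small subunit protein specific to mitochondria, had values of 9.53, 9.49, 9.57, 9.52 and 9.42 in the right limbs of SNX rats 12, 18, 20, 37 and 49, against 9.54, 9.59, 9.57, 9.55 and 9.42 in their left limbs. In sham rats 11, 13, 15 and 17 it had 9.73, 9.65, 9.63 and 9.66 in the right limbs, against 9.55, 9.55, 9.56 and 9.49 in the left limbs. Right values of sham rats were above every other value of this gene, while the other 3 groups overlapped. The difference of the changes was -0.16 ± 0.040 (SE with the block; unadjusted p = 0.0011, adjusted p = 0.976). The most negative difference was that of Mrps35 (-0.22) and the most positive that of Mrps24 (0.18), neither of which passed.

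SNX and sham rats were also compared within each limb, with rats as the only replicates. In the left limb the median SNX minus sham difference was -0.02 for the large and -0.004 for the small subunit, in the right limb -0.01 and -0.004. None of the 76 genes passed in either limb or fit, where 0.00644% of all probe sets in the left and 0% in the right limb did. At an unadjusted p under 0.05, Mrps5 was higher in SNX rats in the left limb (0.25 ± 0.10, SE). In the right limb Mrps12 was higher in SNX rats (0.26 ± 0.068) and Mrps26 lower (-0.16 ± 0.036), both with an adjusted p of 0.498. By their values above, SNX and sham rats did not overlap in the right limb for either gene. The share of all named genes without overlap between SNX and sham rats was not counted, so this has no background. At the same unadjusted p, 6.25% of all probe sets were called in the left limb and 9.25% in the right.

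Mrpl12 and the Mrps18 paralogs did not pass in any comparison. Mrpl12, the stalk protein that also binds the mitochondrial RNA polymerase, had the highest mean of the 76, and its right minus left difference was -0.04 ± 0.071 (SE). A second, dimmer probe set of the gene gave -0.25 ± 0.17 and did not pass either. The paralogs Mrps18a, Mrps18b and Mrps18c differed in direction without passing, at 0.10 ± 0.083, 0.05 ± 0.079 and -0.25 ± 0.14. Products of Mrps18a and Mrps30 sit in the large subunit of the mammalian ribosome despite their symbols. Mrps30 had a difference of -0.05 ± 0.062, and counting both genes with the large subunit moved no median past the spread between replicates. Signs of Mrpl12 and the Mrps18 genes turned in some refits of single comparisons.

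Other genes of mitochondrial translation were followed in lists. For the same average over SNX and sham rats, 34 of 34 measured subunit genes of respiratory complex I, the first complex of the respiratory chain, had a right minus left difference below 0, with a median of -0.12. None passed without the block and 3 fell with it (Ndufs3, Ndufb1 and Ndufb2). Of 42 genes for proteins of the cytosolic ribosome, 36 were above 0, with a median of 0.06, and 1 rose in both fits (Rpl3, 0.97 ± 0.24, SE without the block). The backgrounds are the 2.55% without and 9.05% with the block of all probe sets, and 4.48% with the block for a fall. They are shares of calls, and no share of all genes below or above 0 is given beside the counts of signs in these lists.

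Of 15 measured mitochondrial translation factors, 13 were below 0, with a median of -0.10, and 2 fell with the block. These were Mtrf1l, a release factor (-0.30 ± 0.074), and Mtfmt, which formylates the initiator tRNA (-0.17 ± 0.041). The list of mitochondrial tRNA synthetases also held Qrsl1, Gatb and Gatc, which are not synthetases. Of its 18 genes 13 were below 0, with a median of -0.10, and Cars2 fell with the block. Cars2 was dim, with group means of 3.49 to 3.78, near the median probe set at 3.30. The 29 assembly factors were mixed, with a median of -0.06. With the block 4 fell and 2 rose, among them the methyltransferase gene Mettl15 (-0.52 ± 0.12) and the GTPase gene Mtg1 (-0.29 ± 0.057), which act on the small and the large subunit, and on the other side Mpv17l2 (0.59 ± 0.11) and the helicase gene Dhx30 (0.27 ± 0.063). Of 5 measured mitoribosomal proteins with other names (such as Dap3 and Ptcd3), 4 were below 0, with a median of -0.08, and none passed. Without the block only the assembly factors of these 4 lists gave calls, 3 fallen and 1 risen.

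Genes for the transcription and copying of mitochondrial DNA were lower, with a median of -0.15 over 12 genes, 1 fallen without and 4 with the block. Mterf2, a factor of the mitochondrial terminator family, fell by 0.996 (SE 0.144 with the block; limma adjusted p = 0.0107 without it), and Mgme1, a nuclease of mitochondrial DNA, by 0.24 (SE 0.064). Nuclear regulators of mitochondrial genes were mixed. Of 10 genes 7 were above 0, with a median of 0.10. Myc rose in both fits (2.39 ± 0.35) and the coactivator gene Pprc1 with the block (0.91 ± 0.21). Nrf1, whose protein binds the NRF1 motif, had group means of 4.56 in the right and 4.51 in the left limbs of SNX rats and of 4.68 in the right and 4.50 in the left limbs of sham rats, and Yy1 of 10.97 and 11.00 in SNX rats and of 10.99 and 11.00 in sham rats. Neither passed.

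**Figure D5:**
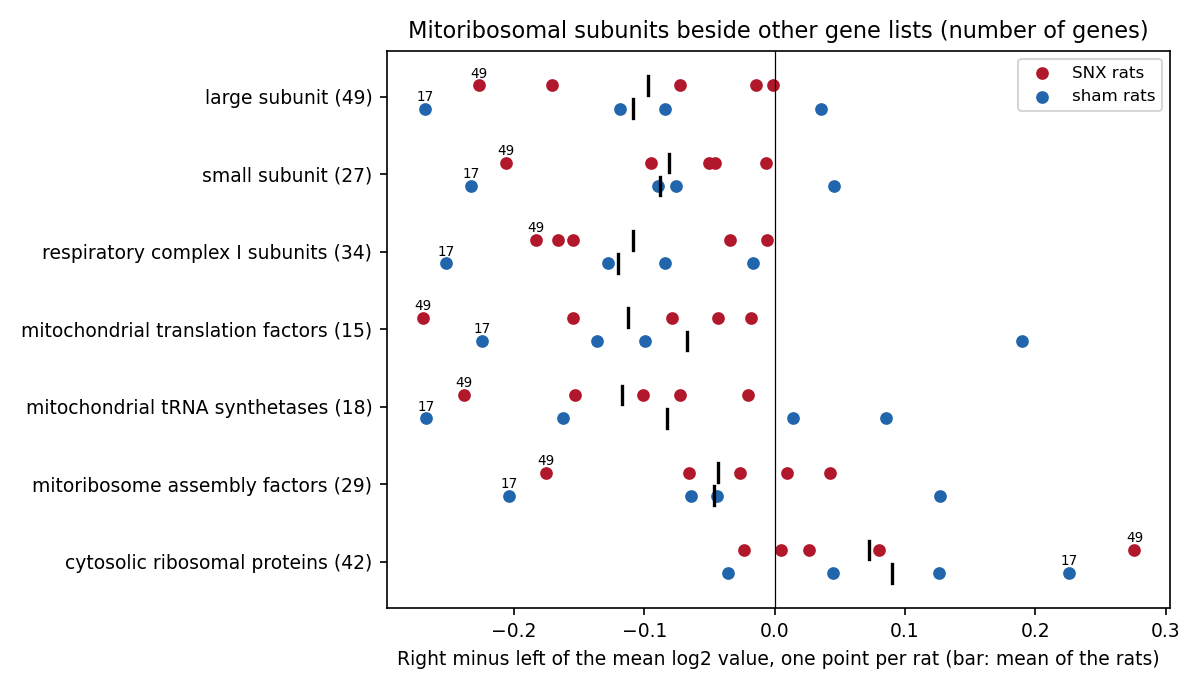
Right minus left difference of the mean log2 value of 7 gene lists, with 1 point per rat (red SNX, blue sham), a bar for the mean of the rats and the number of genes in brackets; SNX rat 49 and sham rat 17 are numbered. Both mitoribosomal subunits and complex I lie mostly below 0 and the cytosolic ribosomal proteins mostly above, and rats 49 and 17 have the outermost values on the low side of every list but the cytosolic one, where they are outermost on the high side.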

How the data were processed

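The authors deposited 1 table of log2 expression values for 31099 probe sets on 18 arrays, already normalized by them. Per the submitters' processing notes, the tools were RMA, GCRMA and Partek, with no version. It is not stated which of them gave these values, and RMA and GCRMA treat dim probe sets differently. Arrays hold no read depth, and the number of rats limits the precision. Groups came from the titles, whose number was read as the rat.

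After leaving out 57 control probe sets, 31042 were tested with limma 3.58.1 in R 4.3.3 (1 mean per group, 14 residual and 1.02 prior degrees of freedom, two-sided p-values, Benjamini-Hochberg adjustment, threshold 0.05). Other steps used Python 3.11.15. The limbs of a rat are paired, and their deviations from the group means correlated above 0.1 in 7 of 9 rats, so results of a fit that blocks on the rat (limma's duplicateCorrelation, at a consensus of 0.297) stand beside the unblocked ones where they change a call. The fit without the block was tested on simulated data that held no rat effect, and the fit with the block was not tested in this way.

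Symbols came from the platform annotation, updated through RefSeq (GRCr8), which matched all 76 genes. Of these, 3 (mrpl9, mrpl11 and mrpl24) are written in lower case there and were counted. Probe sets with several genes (436) or none (9780) were not named. Named in each comparison were the genes past the threshold in either fit, the 3 largest differences in each direction, Mrpl12 and the Mrps18 paralogs, and from other lists up to 2 risen and 2 fallen genes; other names (genes called at an unadjusted p, single list members) were picked with their values in view. The genes, lists, tests and alternatives were chosen with earlier results of these data known. Alternatives covered the block, centring, quantile normalization, dim probe sets, an intensity trend, several probe sets per gene, single rats and the arrays that stood apart.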

Additional observations from a re-analysis of the deposited data

Results flagged for a closer look

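In a search that included the 35 named genes, 152 groups of 4 or 5 arrays were examined for an array far from the others. It found 5, fewer than the 7.6 that chance marks at about 1 in 20 groups. In the left limbs of SNX rats, Mrpl39 was low in rat 12 at 9.96, against 10.48 to 10.66 in the other 4, and mrpl24 was low in rat 18 at 10.2, against 10.97 to 11.08. Mrps15 was low in the right limb of SNX rat 49 at 11.9, against 12.12 to 12.16, an array that stood apart over all probe sets. Mrps26 was low in the left limb of SNX rat 49 at 9.42, against 9.54 to 9.59 in the other 4 SNX rats, and in the left limb of sham rat 17 at 9.49, against 9.55 to 9.56 in the other 3 sham rats.

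The right minus left change of Mrps26 had opposite directions in the 2 kinds of rat. It averaged -0.032 ± 0.040 in SNX rats (SD, lower on the right in 5 of 5), against 0.13 ± 0.053 in sham rats (higher in 4 of 4). In limma's test of the difference itself, it did not pass (adjusted p = 0.976 with the rat as a block).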

How the results depend on the processing

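The median differences of both subunits moved by less than the spread between replicates under every alternative run for the 6 comparisons. This is a loose criterion, since the right minus left means of the 9 rats had an SD of 0.10 for the large and 0.089 for the small subunit. Leaving out single rats kept the right minus left medians below 0 in SNX rats, in sham rats and on average. Signs turned where SNX and sham rats were compared, for example from -0.070 to 0.040 for the large subunit in the right limb. Counts of called genes depended on the fit. For right against left over SNX and sham rats, 3 of 76 genes were called without the block, 19 with the replicate block as a random effect, 8 with the rat as a fixed term, 5 with the mean of all probe sets of a gene, 1 with an intensity trend, and 1 without the right arrays of sham rat 17 and SNX rat 49 (7 with the block, an alternative added after seeing the data). Leaving out single rats gave 0 to 4 genes without and 3 to 23 with the block (9 without sham rat 13, SNX rat 18 or SNX rat 49). In sham rats alone, 0 were called without the block, 3 with the random and 1 with the fixed block, and leaving out single rats gave 0 to 1 without and 0 to 8 with the block. The block changed no call in the other comparisons.

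Over all probe sets, right against left gave 791 calls for the average of SNX and sham rats without and 2808 with the block, 1796 when only probe sets above the median were tested, and 153 to 1007 without single rats. For SNX rats the counts were 14 and 99, and 0 when only the compared groups were fitted. For sham rats they were 46 and 559, and 11 with only the compared groups.

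Signs turned for some genes, none of which passed in that comparison. Most differences were near 0, but Mrps18c had -0.18 in SNX rats and Mrps27 -0.17 for the difference of the changes. Without the 2 arrays that stood apart, Mrpl12 gave 0.031 in sham rats, 0.0058 on average and -0.050 for the difference of the changes, Mrps18b -0.079 for that difference, and Mrps18a -0.055 for SNX minus sham in the right limb (-0.0062 after centring). With the mean of all probe sets, the difference of the changes was 0.0074 for Mrps27 and -0.013 for Mrpl12, and SNX minus sham in the left limb was 0.0016 for Mrps18c. Leaving out single rats gave, for right minus left in SNX rats, -0.050 to 0.037 for Mrpl12 and -0.28 to 0.043 for Mrps18c, in sham rats -0.13 to 0.0046 for Mrpl12 and -0.086 to 0.13 for Mrps18b, and on average -0.016 to 0.091 for Mrps18b. For the difference of the changes it gave -0.014 to 0.12 for Mrpl12, -0.097 to 0.0058 for Mrps18a and -0.074 to 0.14 for Mrps18b. For SNX minus sham it gave -0.10 to 0.035 for Mrps18b and -0.16 to 0.10 for Mrps18c in the left limb, and -0.084 to 0.093 for Mrps18a and -0.080 to 0.060 for Mrps18b in the right limb. The cause was not tested.

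With 5 SNX and 4 sham rats, the median SE without the block was 0.074 over the 76 genes for the average over SNX and sham rats, and a gene that did not pass is not shown to be unchanged. The deposited values carry no signal over background.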

Other observations

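Compared over the 76 genes, the deviations of a rat's limbs from the means of their groups correlated between -0.46 in sham rat 11 and 0.87 in SNX rat 18. These are correlations across genes, which are not independent replicates. Over all probe sets the range was from -0.0009 in SNX rat 49 to 0.53 in SNX rat 18.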
